A study of Mus musculus with 16 samples.

Results

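The genes described here encode 7 cell surface receptors for the growth factors of dendritic cells (DCs) and related myeloid cells, namely Flt3, Kit, Csf1r, Csf2ra, Csf2rb, Csf2rb2 and Csf3r. They were found by symbol among the 32697 Ensembl genes of the deposited count table, and all 7 were present and all 7 passed the filter on low counts. The table holds bulk RNA-seq of 16 mouse libraries. The series describes the sorted cells as type 1 conventional dendritic cells (cDC1s), taken from tumours of YUMM1.7, a transplanted mouse melanoma line. There were 4 genotypes with 4 libraries each. The Ikbkb controls carried the label IKKbFF and the Ikbkb-deleted libraries the label IKKbdeltaXCR1. The Irf1 controls carried the label IRF1FF and the Irf1-deleted libraries the label IRF1deltaXCR1. Ikbkb encodes the NF-kB activating kinase IKK-beta, Irf1 encodes a transcription factor induced by interferon, and the deletion labels carry the name of XCR1, the chemokine receptor that marks cDC1s. All groups shared the engraftment of YUMM1.7 cells, and tumours were grown to between 200 and 350 mm3. The notes on growth and treatment name female mice with the Ikbkb alleles only, so the Irf1 libraries are known by their genotype label alone. The sources used here give no Cre line, age of the mice or sorting markers, and leave unstated if replicates are different animals. The spread behind each p-value is that between libraries, which may be technical, and replicate numbers only name libraries in the order of the record.

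FLT3 is the receptor for FLT3 ligand, the factor that drives the formation of DCs from their bone marrow precursors, and cDC1s keep it on their surface. KIT, the receptor for stem cell factor, and CSF1R, the receptor for CSF1 and IL-34, belong to the same class of receptor tyrosine kinases. KIT is known from progenitors and mast cells, and CSF1R from macrophages and monocytes. The receptor for GM-CSF is built from the alpha chain CSF2RA and the common beta chain CSF2RB, which also serves IL-3 and IL-5. Mice carry a second, closely related beta chain, CSF2RB2, that serves IL-3 only. CSF3R is the receptor for G-CSF and is best known from neutrophils.

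Libraries held 16478671 to 27433818 counts. Neither targeted gene passed the test in its own deletion. Ikbkb measured 45.1, 44.5, 120.8 and 48.6 counts-per-million (CPM), with totals scaled by TMM, in the Ikbkb controls and 46.3, 28.5, 37.1 and 37.8 CPM in the libraries labelled Ikbkb-deleted, -0.79 on the log2 scale (edgeR adjusted p = 0.988). The edgeR p of Ikbkb before adjustment was 0.028, and such a p was under 0.05 for 4.79% of all genes. Without Ikbkb control replicate 3 the log2 change of Ikbkb was -0.31. Irf1 measured 141.2, 234.2, 152.4 and 268.0 CPM in Irf1 controls against 299.2, 122.8, 144.8 and 98.6 CPM in the libraries labelled Irf1-deleted, -0.26 on the log2 scale (edgeR adjusted p = 1). The directions below rest on these labels. The defining cDC1 markers were present in every library, with Xcr1 between 12.1 and 318.2 CPM and Clec9a between 0.603 and 67.6 CPM. The sum of 14 cDC1 markers ran from 926 to 9831 CPM, a 10.6-fold range. Markers of other cells were present as well: 16 macrophage and monocyte genes summed to between 1084 and 12680 CPM, and 12 genes of fibroblasts and endothelium to between 6357 and 31390 CPM. The melanoma genes Mlana, Tyr, Dct, Tyrp1 and Slc45a2 were each at 0 in 15 libraries, Sox10 in 7 and Pmel in 4. In the same list Mitf, at 1.43 to 16.4 CPM, and Gpnmb, at 2.26 to 21.6 CPM, had counts in every library. The neutrophil gene Ly6g was at 0 in 14 libraries, Ngp in 12 and Camp in 11. Of that list S100a8, S100a9, Mmp9, Retnlg and Il1r2 had counts in every library. Ikbkb control replicate 3 and Ikbkb-deleted replicate 1 stood apart, with cDC1 marker sums of 9541 and 9831 CPM, while the other 14 libraries lay between 926 and 4112 CPM. In bulk RNA, fewer cells of a type and less RNA per cell cannot be told apart.

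The measurements of Csf2rb and Csf2rb2 are tied to each other by sequence. The genes lie side by side on chromosome 15, 20030 bases apart on opposite strands. Their coding sequences hold 2691 and 2637 bases in GENCODE M21, and of 2631 aligned bases 95.2% were identical, with 1 unbroken identical stretch of 242 bases. Of all distinct runs of 50 bases in the transcripts, 17.1% of those in Csf2rb and 18.8% of those in Csf2rb2 occurred in the other gene as well. For runs of 100 bases these shares were 6.46% and 7.05%. Reads from such stretches cannot be assigned to 1 gene, and how the deposited counts treated them was not given in the sources used here, so the level of each gene is uncertain. A 120-base part of the identical stretch is shown because a read inside it fits both genes. It lies at chr15:78348577-78348696 on the plus strand in Csf2rb and at chr15:78284752-78284871 on the minus strand in Csf2rb2 (mm10), and is written 5′ to 3′ in the direction of transcription.
Csf2rb and Csf2rb2, shared: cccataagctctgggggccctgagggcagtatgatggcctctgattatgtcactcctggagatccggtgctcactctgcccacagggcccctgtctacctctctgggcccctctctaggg

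Elsewhere the paralogs can be told apart. The coding window of 90 bases with the most differences held 16, marked in capitals in both sequences, and reads over it can be assigned. It lies at chr15:78338897-78338986 on the plus strand in Csf2rb and at chr15:78294345-78294434 on the minus strand in Csf2rb2 (mm10, 5′ to 3′ in the direction of transcription).
Csf2rb: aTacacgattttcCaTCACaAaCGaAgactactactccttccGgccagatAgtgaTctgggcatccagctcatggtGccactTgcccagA
Csf2rb2: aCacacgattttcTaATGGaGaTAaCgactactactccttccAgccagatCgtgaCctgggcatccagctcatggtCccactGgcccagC

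Compared per length, as CPM divided by the exon length in kilobases (RPKM), Csf1r was the most abundant of the receptor genes and Csf3r the least. Mean levels over the 16 libraries, ± SD, were 30.9 ± 15.9 RPKM for Csf1r, 19.2 ± 19.1 for Flt3, 12.9 ± 8.24 for Csf2ra and 9.51 ± 5.65 for Csf2rb. Kit, Csf2rb2 and Csf3r followed with 4.66 ± 3.64, 4.36 ± 1.75 and 2.19 ± 1.49 RPKM. Csf1r, the macrophage receptor, had the highest RPKM of the 7 genes in 12 libraries and Flt3, the DC receptor, in the other 4. Neighbours in this order were not cleanly separated. Flt3 exceeded Csf1r in 4 of 16 libraries, Flt3 exceeded Csf2ra in 11, Csf2ra exceeded Csf2rb in 12 and Kit exceeded Csf2rb2 in 7. The alpha chain Csf2ra was above Csf2rb2 in 16 of 16 libraries, and Csf2rb was above Csf2rb2 in 15. Part of the Csf1r exons, 873 of 5774 bases, overlaps exons of Hmgxb3 on the opposite strand. The strand setting of the counting is not known, so the Csf1r level may hold or lack reads in that part.

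Flt3 (ENSMUSG00000042817, mm10 chromosome 5, 147330741 to 147400489, minus strand) varied more between libraries than between genotypes. The Ikbkb controls held 74.96, 49.5, 430 and 40.9 CPM. Among Ikbkb-deleted libraries it measured 387.7, 105.6, 57.9 and 50.7 CPM. The libraries at 430 and 387.7 CPM are those with the most cDC1 marker RNA, 1 in each group, and the groups overlapped. In the Irf1 set it measured 86.0, 101.5, 36.0 and 109.3 CPM in the controls and 162.6, 41.2, 88.0 and 74.4 CPM in the deleted libraries. These groups overlapped too. The log2 fold change was 0.02 (SE 0.76) for the Ikbkb deletion and 0.14 (SE 0.76) for the Irf1 deletion. As a fold, the 95% interval ran from 0.328 to 3.11 for the former, so a change within that range was not excluded for this gene.

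Kit (ENSMUSG00000005672, mm10 chromosome 5, 75574916 to 75656722, plus strand) followed the same libraries in part. It measured 39.6, 10.1, 82.2 and 17.6 CPM in the Ikbkb controls and 142.9, 22.3, 20.2 and 26.7 CPM in the Ikbkb-deleted libraries. Ikbkb-deleted replicate 1 was the highest of all 16 libraries, and the other 3 of its group lay within the range of the controls. The Irf1 controls measured 48.4, 37.8, 27.9 and 19.3 CPM and the Irf1-deleted libraries 60.5, 29.9, 39.2 and 40.1 CPM, with overlap. The log2 fold changes were 0.50 (SE 0.66) and 0.35 (SE 0.66). Kit is also carried by mast cells, and mast cell genes were detected, with Cpa3 between 0.158 and 79.6 CPM.

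Csf1r (ENSMUSG00000024621, mm10 chromosome 18, 61100598 to 61132149, plus strand) was low in 3 libraries from 3 groups. It measured 231.7, 212.3, 149.6 and 221.4 CPM in the Ikbkb controls and 51.4, 125.3, 280.4 and 157.5 CPM in the Ikbkb-deleted libraries. It measured 50.7, 229.3, 155.6 and 398.6 CPM in Irf1 controls against 223, 180.9, 139.6 and 42.8 CPM in their deleted counterparts. Both deleted groups overlapped their controls. The log2 fold changes were -0.41 (SE 0.57) and -0.51 (SE 0.57). The library with the most Flt3 among the deleted, Ikbkb-deleted replicate 1, was among the lowest for Csf1r.

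Csf2ra (ENSMUSG00000059326, mm10 chromosome 19, 61223957 to 61228429, minus strand), the GM-CSF binding chain, measured 22.5, 26.2, 102.6 and 25.9 CPM in the Ikbkb controls and 68.9, 28.5, 23.2 and 15.9 CPM in the Ikbkb-deleted libraries. Its highest library was the control with the most cDC1 marker RNA in its group. It measured 19.7, 45.6, 24.1 and 68.8 CPM in Irf1 controls against 41.3, 25.2, 31.0 and 23.8 CPM in their deleted counterparts. The groups overlapped in both sets, and the log2 fold changes were -0.38 (SE 0.55) for the Ikbkb deletion and -0.38 (SE 0.55) for the Irf1 deletion.

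Csf2rb (ENSMUSG00000071713, mm10 chromosome 15, 78325752 to 78353847, plus strand), the common beta chain, measured 74.7, 18.1, 124.2 and 41.0 CPM in the Ikbkb controls and 166.9, 46.6, 87.7 and 35.5 CPM in the Ikbkb-deleted libraries. It measured 46.1, 82.4, 33.8 and 98.0 CPM in Irf1 controls against 105.1, 47.0, 82.7 and 17.9 CPM in their deleted counterparts. Each of the 4 groups spanned low and high libraries, and none stood clear of another. The log2 fold changes were 0.38 (SE 0.62) and -0.04 (SE 0.62).

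Csf2rb2 (ENSMUSG00000071714, mm10 chromosome 15, 78282507 to 78305721, minus strand), the IL-3 beta chain, had the narrowest range, 3.69-fold over the 16 libraries against 11.9-fold for Flt3 and 14.1-fold for Kit. It measured 14.7, 9.89, 26.4 and 11.6 CPM in the Ikbkb controls and 30.3, 13.7, 36.5 and 12.2 CPM in the Ikbkb-deleted libraries. It measured 13.3, 21.4, 18.6 and 26.0 CPM in Irf1 controls against 23.7, 24.8, 32.9 and 14.4 CPM in their deleted counterparts. The means were higher in both deleted groups, but the groups overlapped. The log2 fold changes were 0.56 (SE 0.40) and 0.27 (SE 0.40), and their average 0.42 (SE 0.28, edgeR adjusted p = 0.952).

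Csf3r (ENSMUSG00000028859, mm10 chromosome 4, 126024550 to 126044440, plus strand) rested on 36 to 392 counts a library, the fewest of the 7 genes. It measured 2.2, 12.8, 10.2 and 13.7 CPM in the Ikbkb controls and 1.89, 4.33, 5.20 and 6.03 CPM in the Ikbkb-deleted libraries. All of the Ikbkb-deleted libraries lay below 3 of the controls, but control replicate 1 was lower than 3 of the deleted libraries, so the groups overlapped. The means were 9.74 ± 5.25 and 4.36 ± 1.79 CPM (SD, n = 4), which is -1.16 on the log2 scale (SE 0.71) and 0.449-fold, with a 95% interval from 0.159 to 1.27. This was the largest difference among the receptor genes after the Ikbkb deletion, and its edgeR adjusted p was 1. In the Irf1 set Csf3r measured 2.19, 11.1, 5.67 and 17.3 CPM in the controls and 17.9, 3.85, 8.89 and 3.03 CPM in the deleted libraries, with overlap and a log2 fold change of -0.11 (SE 0.70). The test of the difference between both deletion effects gave 1.05 on the log2 scale (SE 0.99, edgeR adjusted p = 1).

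**Figure D1:**
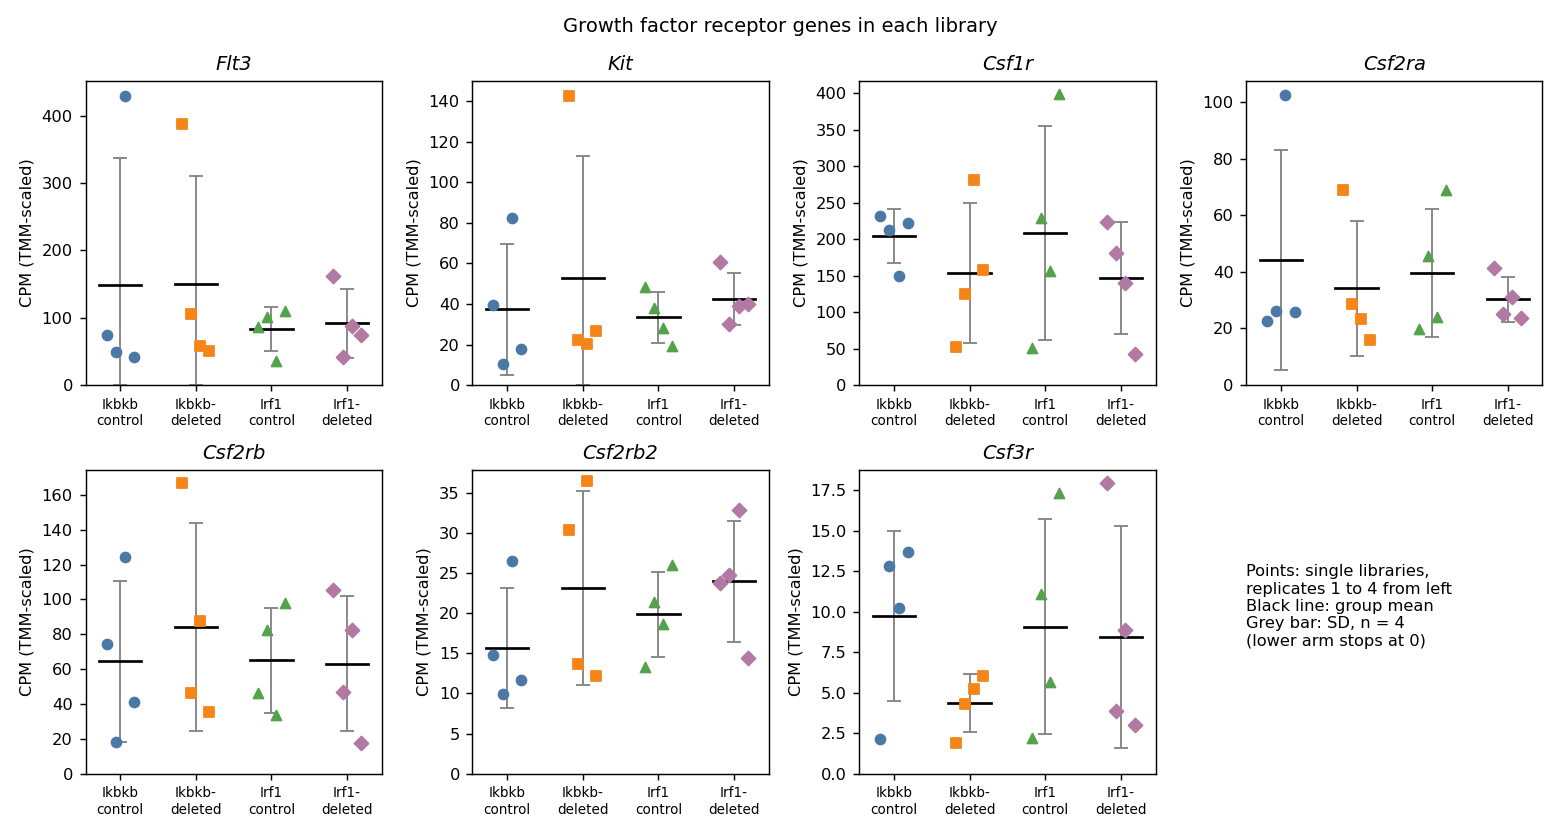
Level of each receptor gene in CPM (vertical axis, scaled by TMM) in the 4 genotype groups (horizontal axis). Points are single libraries, black lines group means and grey bars the SD over 4 libraries. The Flt3 values of 430 and 387.7 CPM stand far above the other libraries of their groups, and in every panel the points of each deleted group overlap those of its controls.

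The first question of the design was whether loss of Ikbkb or Irf1 changed the receptors. None of the 7 passed the threshold, an edgeR adjusted p under 0.05, in either deletion, and none had an unadjusted p under 0.05. The same count of 0 members was given by DESeq2 and by limma voom with quality weights. No gene at all was called in these contrasts by edgeR. The share called was 0% of 16040 genes for the Ikbkb deletion, with 769 genes (4.79%) at an unadjusted p under 0.05. It was 0% for the Irf1 deletion, with 419 genes (2.61%). DESeq2 called 38 and 6 genes, none of them a receptor gene. For the difference between the deletion effects edgeR called 0% and for their average 0%, with 455 and 842 genes at an unadjusted p under 0.05 and 12 and 27 genes called by DESeq2. In these contrasts too, 0 members were called by each of these tools. The log2 fold change was above 0 for 4 members and below 0 for 3 after the Ikbkb deletion, with a median of 0.02 beside -0.02 over all genes. It was above 0 for 3 and below 0 for 4 after the Irf1 deletion, with a median of -0.04 beside -0.02. A count of 0 members of 7 whose deleted libraries did not overlap the controls stood beside 1.7% of all genes in the Ikbkb set and 2.89% in the Irf1 set. The intervals were wide, so these data do not show that the receptors were alike with and without each factor.

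Direction depended on single libraries for most members. Flt3 in the Ikbkb contrast went from 0.02 to -1.07 on the log2 scale without Ikbkb-deleted replicate 1 and to 1.44 without Ikbkb control replicate 3. Kit went from 0.50 to -0.70 without Ikbkb-deleted replicate 1 and Csf2ra from -0.38 to 0.45 without Ikbkb control replicate 3. With both of these libraries left out, an analysis chosen after seeing the data, the log2 fold changes were 0.37 for Flt3, 0.04 for Kit, 0.79 for Csf2rb2 and -0.89 for Csf3r, and the count of members called remained 0. Csf2rb2 stayed above 0 and Csf3r and Csf1r below 0 in the Ikbkb contrast whichever library was left out. In the Irf1 contrast only Kit and Csf2rb2 kept their direction in this test, both above 0.

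**Figure D2:**
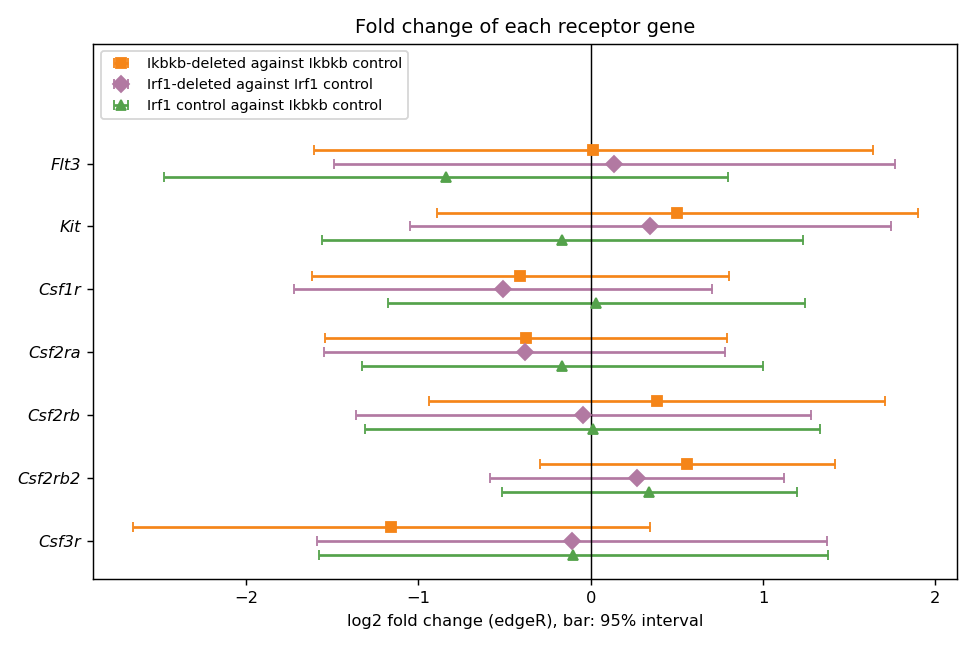
Log2 fold change of each receptor gene with its 95% interval from edgeR (horizontal axis) for the Ikbkb deletion, the Irf1 deletion and the contrast of both control groups. Every interval includes 0, and the estimate farthest from 0 is that of Csf3r after the Ikbkb deletion, at -1.16.

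The Irf1 controls were compared with the Ikbkb controls to see whether both sets of 8 libraries started from the same level. Any difference of strain, cohort or handling between the sets cannot be told apart from the allele. edgeR called 12.6% of all genes here, 1081 higher and 937 lower in the Irf1 controls, but 0 of the 7 receptor genes, and 0 of them had an unadjusted p under 0.05 beside 28.3% of all genes. Groups did not overlap for 17.5% of all genes and for 0 of the 7. Flt3 differed most, with 83.2 ± 32.9 CPM in Irf1 controls against 148.8 ± 188 CPM in the Ikbkb controls, or -0.84 on the log2 scale (SE 0.77, edgeR adjusted p = 0.517). Without Ikbkb control replicate 3 it was 0.60. Csf2rb2 had 0.34 (SE 0.40) and the other 5 lay between -0.16 and 0.03. The targeted gene Irf1 averaged 198.9 ± 61.9 CPM in Irf1 controls against 462.8 ± 290.7 CPM in the Ikbkb controls, without overlap. Its log2 fold change was -1.22 (SE 0.41, edgeR adjusted p = 0.062), and -1.41 to -0.68 with each library left out in turn. DESeq2 (adjusted p 0.017) and voom (adjusted p 0.0312) called it. Over the same libraries, 8 of 12 fibroblast and endothelium genes were called higher in the Irf1 controls. Their part in the level of the receptor genes was not tested.

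The level of Flt3 followed the summed RNA of the cDC1 markers. The most abundant genes in that sum were Ppt1, Irf8 and Naaa, with medians of 491.6, 421.1 and 320.3 CPM. Xcr1 and Clec9a had medians of 57.7 and 11.1 CPM. Over the 16 libraries, log2 CPM of Flt3 and the log2 sum of the cDC1 markers had a Pearson r of 0.973 and a Spearman rho of 0.906, each with a permutation p of 1e-05, the smallest that 100000 permutations can give (adjusted p 0.000385 and 0.00077 over 77 relations of 7 genes with 11 marker lists). Without the 2 libraries farthest from the median, Ikbkb control replicate 3 and Ikbkb-deleted replicate 1, r was 0.917. Within the Ikbkb set of 8 libraries r was 0.997 and within the Irf1 set 0.969 (exact permutation p 7.44e-05 and 0.00169). Flt3 also had an r of 0.802 with mature DC genes such as Ccr7 and Fscn1 (rho 0.559, permutation p 0.00051 and 0.0266, adjusted p 0.0131 and 0.257). Pooled over the other 14 libraries, without the same 2, this r was 0.437. Within the Ikbkb set it was 0.958 (exact permutation p 0.000843, adjusted p 0.0162). Within the Irf1 set, which holds neither of the 2, it was 0.963 (exact permutation p 0.000223, adjusted p 0.00859). Flt3 had an r of -0.124 with macrophage and monocyte genes (permutation p 0.653, rho -0.0559 with p 0.84, r -0.22 without the 2 farthest libraries, adjusted p 0.897). This pooled value joins sets of opposite sign, -0.657 within the Ikbkb set and 0.311 within the Irf1 set (exact permutation p 0.0593 and 0.455, adjusted p 0.19 and 0.662).

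Csf1r followed the macrophage and monocyte genes. Its r with their sum was 0.934 and rho 0.824 (permutation p 1e-05, the smallest possible here, and 0.00017; adjusted p 0.000385 and 0.00654). Without Irf1 control replicate 1 and Irf1-deleted replicate 4, the libraries farthest from the median, r was 0.886, and within the sets it was 0.968 and 0.951. With the sum of the cDC2 list, which starts with Cd209a and Clec10a but holds Sirpa as its most abundant gene (median 113.7 CPM), r was 0.723 and rho 0.559 (permutation p 0.00181 and 0.0261, adjusted p 0.0232 and 0.257). That relation was 0.765 without the 2 farthest libraries, 0.244 within the Ikbkb set and 0.948 within the Irf1 set. With the cDC1 sum Csf1r had an r of -0.275 (permutation p 0.304, rho -0.0941 with p 0.729, r 0.011 without the 2 farthest libraries, adjusted p 0.621). The sets were unlike here, with -0.736 within the Ikbkb set and 0.0794 within the Irf1 set (exact permutation p 0.0347 and 0.852, adjusted p 0.19 and 0.926). Each sum and each receptor come from the same library and share its depth and scaling.

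**Figure D3:**
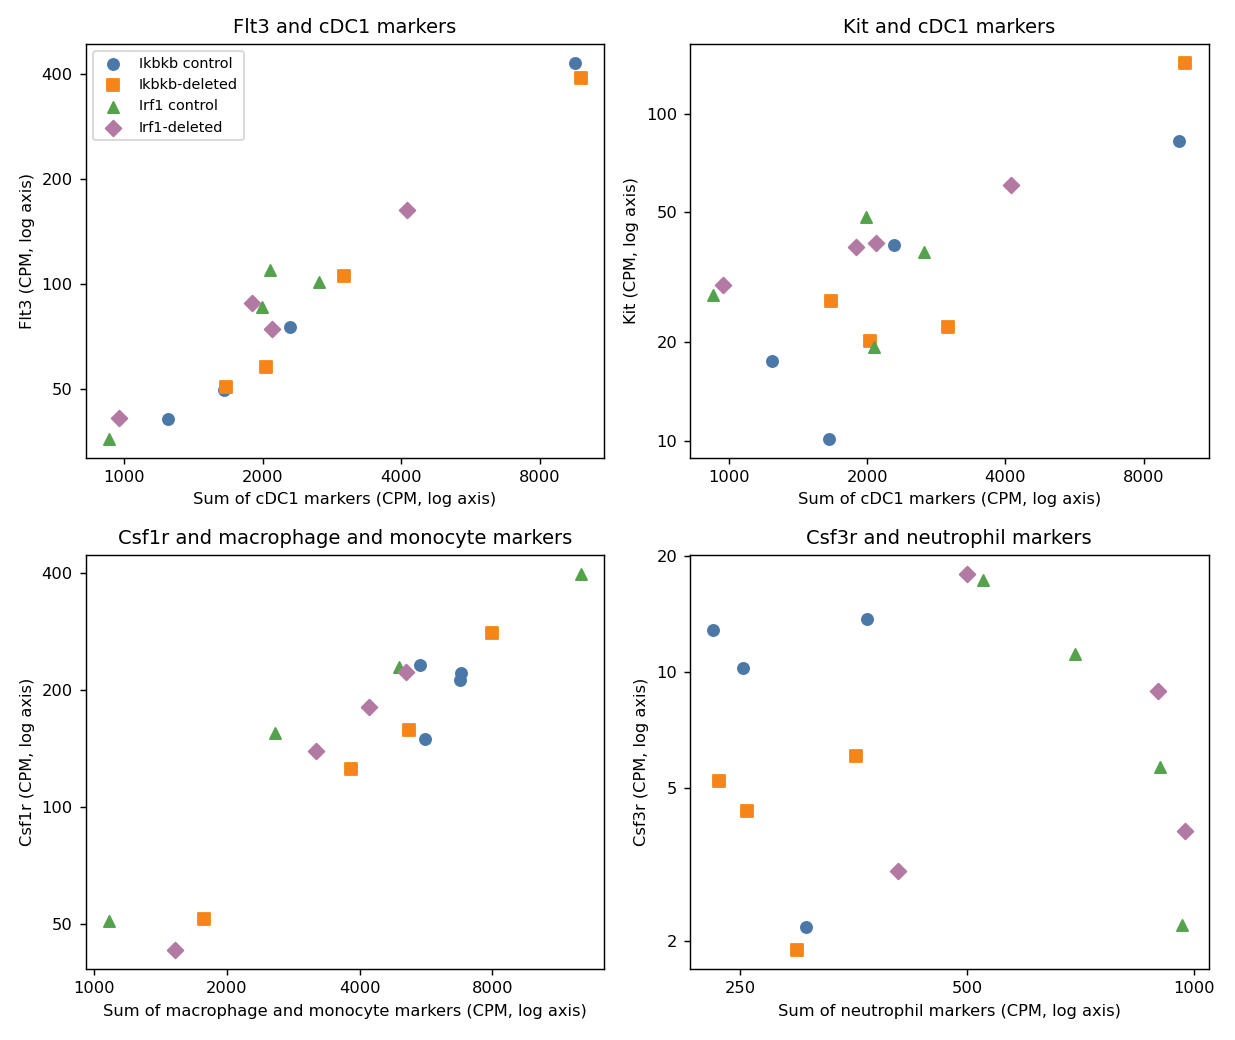
Level of a receptor gene in CPM (vertical axis, log) against the summed CPM of a marker list (horizontal axis, log), 1 point per library, by genotype group. Flt3 rises with the cDC1 markers (r = 0.973) and Csf1r with the macrophage and monocyte markers (r = 0.934), Kit less tightly with the cDC1 markers (r = 0.739), and Csf3r shows no common slope with the neutrophil markers.

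The GM-CSF receptor chains and Kit had weaker relations with cDC1 RNA, which rested on the 2 libraries richest in it. The r with the cDC1 sum was 0.745 for Csf2ra (rho 0.541, permutation p 0.00148 and 0.0331, adjusted p 0.0228 and 0.266), and 0.384 without those libraries. It was 0.739 for Kit (rho 0.612, permutation p 0.00109 and 0.0131, adjusted p 0.021 and 0.233), and 0.388 without them. It was 0.663 for Csf2rb (rho 0.659, permutation p 0.00483 and 0.00675, adjusted p 0.0465 and 0.173), and 0.446 without them. Within the Irf1 set, which lacks both libraries, these values were 0.48, 0.575 and 0.485, and within the Ikbkb set 0.914, 0.895 and 0.794. Csf2ra had higher values in the Irf1 set with other sums, 0.982 with T and NK cell genes, 0.915 with macrophage and monocyte genes and 0.82 with cDC2 genes (exact permutation, adjusted p 0.00191, 0.0153 and 0.0679). The same relations within the Ikbkb set were 0.68, -0.458 and 0.54 (exact permutation, adjusted p 0.19, 0.496 and 0.398). Csf2rb2 had an r of 0.366 with the cDC1 sum (rho 0.359, permutation p 0.168 and 0.174, adjusted p 0.455 and 0.557) and 0.109 without the same libraries.

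Kit did not follow mast cell RNA in one direction. Within the Ikbkb set its r with the sum of mast cell genes was -0.922 (exact permutation p 0.000769, adjusted p 0.0162), and within the Irf1 set 0.16 (exact permutation p 0.706, adjusted p 0.89). The negative relation in the Ikbkb set was not particular to Kit: Csf2rb had -0.915 and Flt3 -0.85 there (exact permutation, adjusted p 0.0348 and 0.0404). Csf3r, the G-CSF receptor, did not follow the neutrophil genes. The neutrophil sums of the sets do not overlap, at 230 to 369 CPM in the Ikbkb set and 405 to 972 CPM in the Irf1 set, so the values within the sets are given first, -0.0743 and -0.359 (exact permutation p 0.857 and 0.371, adjusted p 0.923 and 0.583), and the pooled r, -0.0148, spans that gap. Most of the neutrophil sum came from Mmp9, at 137.5 to 919.5 CPM, while S100a8 ran from 0.158 to 14.3 CPM. Over all 16 libraries Csf3r had its highest r with the macrophage and monocyte sum, 0.688 (rho 0.603, permutation p 0.00286 and 0.0151, adjusted p 0.0315 and 0.233), and 0.581 without the 2 farthest libraries. Within the Irf1 set this r was 0.858 (exact permutation p 0.00506, adjusted p 0.0487). The T and NK cell sum passed there too, at 0.853 (exact permutation p 0.0033, adjusted p 0.0363), but not within the Ikbkb set, at 0.441 (adjusted p 0.542). Within the Ikbkb set the r with the macrophage and monocyte sum was 0.665 and missed the threshold (exact permutation p 0.0543, adjusted p 0.19). It lay below the values with the mast cell sum, 0.727, and the plasmacytoid DC sum, 0.695, which missed the threshold too (adjusted p 0.19 for each by exact permutation). In the Ikbkb set, where Csf3r was lower in the deleted libraries, the macrophage and monocyte sum averaged 6166 ± 709 CPM in the controls and 4686 ± 2599 CPM in the deleted libraries (SD, n = 4). Its part in the Csf3r difference was not tested beyond a fit with this sum as a covariate, in which the log2 fold change of Csf3r in the Ikbkb contrast was -0.66 and the adjusted p missed the threshold. Of the 77 relations, 8 passed the threshold by r, all positive, and 2 of these, Flt3 with cDC1 and Csf1r with macrophage and monocyte genes, also by rho.

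**Figure D4:**
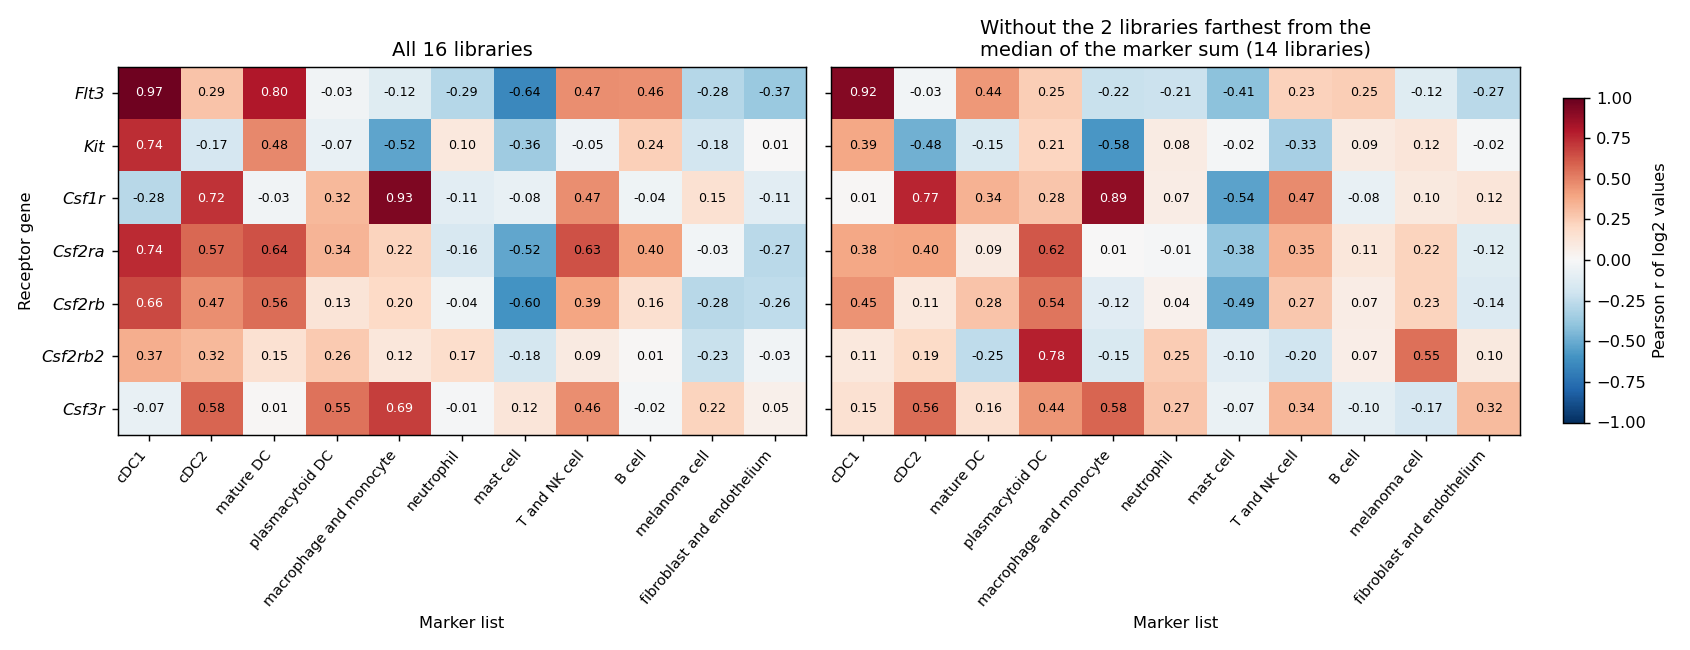
Pearson r of log2 values between each receptor gene (rows) and each marker list (columns), over all 16 libraries on the left and without the 2 libraries farthest from the median of that list on the right. Flt3 with cDC1 (0.97 and 0.92) and Csf1r with macrophage and monocyte genes (0.93 and 0.89) are high in both panels, and the values of Kit, Csf2ra and Csf2rb with cDC1 drop on the right.

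Genes with the most similar pattern were sought among 9459 other genes whose log2 CPM averaged 3 or more, by the r of log2 CPM after the mean of each group was subtracted (16 libraries; 9460 genes for Csf3r, which itself lies under that level). These values describe likeness and carry no test. Flt3 was most like Jaml (0.992), Naaa (0.99), a lysosomal amidase that is itself in the cDC1 list, and Syngr2 (0.987). Csf1r was most like the scavenger receptor gene Msr1 (0.981), Apoe (0.97), which is in the macrophage list, and the Toll-like receptor gene Tlr1 (0.953). Kit was most like Atp6v0a2 (0.943), Rassf3 (0.927) and Arf3 (0.924). Csf2ra was most like Rgs2 (0.97), Cotl1 (0.964) and the leukocyte tetraspanin gene Cd53 (0.963). Csf2rb was most like Sbno1 (0.958), Pacs2 (0.934) and Mical1 (0.924). Csf2rb2 was most like Cd80 (0.895), a costimulatory ligand, Pik3r1 (0.89), the regulatory subunit of PI3 kinase, and Bbx (0.889). Csf3r was most like Igsf6 (0.882), Il18bp (0.858) and the Fc receptor gene Fcgr4 (0.856). On the same scale the highest values between receptor genes were 0.868 for Flt3 with Csf2ra and 0.831 for Csf2rb with Csf2rb2. How reads from their identical stretches were counted is not known.

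Ratios within a library do not depend on depth. The log2 ratio of Csf2rb2 to Csf2rb counts averaged -1.81 ± 0.67 in the Ikbkb controls and -1.76 ± 0.51 in the Ikbkb-deleted libraries (SD, n = 4), a difference of 0.05 (exact two-sided permutation p = 0.914). In the Irf1 set it averaged -1.62 ± 0.515 and -1.18 ± 0.771 (SD, n = 4), a difference of 0.45 (exact two-sided permutation p = 0.371). Csf2rb2 had fewer counts than Csf2rb in all 16 libraries, and the ratio was nearest to equal in Irf1-deleted replicate 4, at -0.31. The log2 ratio of Flt3 to Csf1r ran from -2.43 to 2.91. It was above 0 in 4 libraries, 1 in each group. The means were -1.16 ± 1.82 in the Ikbkb controls and -0.31 ± 2.31 in the Ikbkb-deleted libraries (SD, n = 4; exact two-sided permutation p = 0.571), and -1.10 ± 1.30 and -0.61 ± 1.20 without and with the Irf1 deletion (SD, n = 4; exact two-sided permutation p = 0.571). With 4 against 4 libraries the smallest p this test can give is 0.0286.

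The other genes of these receptor pathways were taken from 5 lists of ligands, partner receptors, signalling proteins, inhibitors and survival or proliferation targets. Of 48 entries, 46 were tested. In both deletions 0 were called by edgeR, with 0 and 1 at an unadjusted p under 0.05. After the Ikbkb deletion 14 log2 fold changes were above 0 and 32 below, with a median of -0.11 beside -0.02 over all genes. After the Irf1 deletion 13 were above 0 and 33 below, with a median of -0.15 beside -0.02. The smallest p values after the Ikbkb deletion were those of the adaptor Dok2, at -0.97 on the log2 scale (SE 0.56, edgeR adjusted p = 1), and the cyclin Ccnd2, at -0.40 (SE 0.27). Without both libraries rich in cDC1 markers these values were -0.10 and 0.06. After the Irf1 deletion they were those of Cblb, a ubiquitin ligase that restrains receptor signalling, and the cyclin Ccnd1. Cblb averaged 77.4 ± 12.1 CPM in Irf1 controls against 40.8 ± 7.56 CPM in their deleted counterparts (SD, n = 4), and these groups did not overlap, as in 2.89% of all genes. Its log2 fold change was -0.93 (SE 0.35, edgeR adjusted p = 1), and it was the 1 pathway gene at an unadjusted p under 0.05. Ccnd1 had 0.35 (SE 0.20). For the difference and the average of the deletion effects 0 of 46 were called as well. The smallest p were those of Myc (-0.36, SE 0.23) and Csf2 (-2.60, SE 1.71) for the difference, and of Cblb (-0.56, SE 0.24) and Ccnd1 (0.27, SE 0.14) for the average.

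Between the control groups 2 of the 46 pathway genes were called, both higher in the Irf1 controls, beside 12.6% of all genes. Bcl2, a survival protein, averaged 25.1 ± 6.69 CPM in Irf1 controls against 10.9 ± 3.54 CPM in the Ikbkb controls (SD, n = 4), which is 1.20 on the log2 scale (SE 0.28, edgeR adjusted p = 0.0162), and the groups did not overlap. Csf1, the ligand of CSF1R, averaged 138.3 ± 47.5 and 73.7 ± 17.5 CPM (SD, n = 4), which is 0.91 on the log2 scale (SE 0.26, edgeR adjusted p = 0.0316). The Bcl2 call was lost without Ikbkb control replicate 2 (adjusted p 0.0501) or Irf1 control replicate 3 (adjusted p 0.0562). The Csf1 call was lost without Ikbkb control replicate 1 or 2 or Irf1 control replicate 1, 2 or 3, with adjusted p from 0.0574 to 0.117. It was also lost without the filter on low counts (adjusted p 0.0528) and with the macrophage sum as a covariate (adjusted p 0.0562), settings under which Bcl2 was still called. The other CSF1R ligand, Il34, was not called, with 45.7 ± 15.6 CPM in Irf1 controls against 42.9 ± 12.1 CPM in the Ikbkb controls (SD, n = 4). Csf1 is made by many stromal cells. The fibroblast and endothelium sum averaged 21790 CPM in Irf1 controls against 9473 CPM in the Ikbkb controls. Its part in these calls was not tested.

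Ligand RNA differed widely in level between ligands, given here in CPM and not per length. Csf1 ran from 47.9 to 197.4 CPM, Il34 from 22.6 to 57.5 CPM and Kitl, the ligand of KIT, from 9.99 to 54.7 CPM. Flt3l, the ligand of FLT3, ran from 0.101 to 4.96 CPM. Csf2, which encodes GM-CSF, reached at most 4.33 CPM and was at 0 in 2 libraries, and Csf3, which encodes G-CSF, reached at most 3.31 CPM and was at 0 in 9. Of the partner chains, Il3ra ran from 6.95 to 27.3 CPM, and Il5ra was at 0 in 10 libraries.

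The promoters of the receptor genes were searched for motifs of NF-kB and IRF factors, because the deleted genes act through them, and of PU.1 and STAT, known regulators and effectors of these receptors. RefSeq (GRCm38.p6) gave 6 windows of 5 members, from 250 bases before to 50 after the start: 2 for Kit and 1 each for Csf2ra, Csf2rb2, Csf3r and Flt3. Csf1r and Csf2rb were not searched. Both strands were read. An IRF motif GAAANNGAA was found in 1 of 6 windows, that of Csf3r, and in 8.56% of 32851 windows of all genes. A further A at its end left 0 of 6 and 3.44% of all. The broad NF-kB motif was found in 1 of 6, again Csf3r, and in 8.46% of all, and a narrow form, GGGA, any base and TTTCC, in 0 of 6 and 0.411% of all. The PU.1 motif GAGGAAGT was in 1 of 6 and 3.2% of all, and the STAT motif TTCNNNGAA in 1 of 6 and 8.3% of all, both in the window of Csf2rb2. These matches did not overlap each other. They describe letters and show neither a bound site nor a cause. The Csf3r window is shown because that gene had the largest difference after the Ikbkb deletion. The part before its first transcribed base in GENCODE M21 is chr4:126024409-126024549 on the plus strand, and capitals mark the broad NF-kB motif on the opposite strand, whose first base lies 129 bases before the RefSeq start.
Csf3r: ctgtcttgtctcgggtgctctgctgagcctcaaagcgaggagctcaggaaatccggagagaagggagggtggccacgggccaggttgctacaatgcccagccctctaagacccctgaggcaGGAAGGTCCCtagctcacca

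The window of Csf2rb2 is shown because its receptor chain signals through STAT proteins. It is chr15:78305722-78305971 on the minus strand, read 5′ to 3′ in the direction of transcription up to the RefSeq start, and capitals mark the STAT motif, whose first base lies 15 bases before that start.
Csf2rb2: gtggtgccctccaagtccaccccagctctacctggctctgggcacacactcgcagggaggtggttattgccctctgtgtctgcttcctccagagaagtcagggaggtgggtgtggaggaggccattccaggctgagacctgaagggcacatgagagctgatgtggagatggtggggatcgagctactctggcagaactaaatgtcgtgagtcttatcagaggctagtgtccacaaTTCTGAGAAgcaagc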

How the data were processed

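What the authors deposited is a single file of raw, unnormalized read counts for each Ensembl gene in all 16 libraries. Per the labels' protocols, RNA of sorted cells was turned into full-length cDNA with SMART-Seq v4 and made into libraries with Nextera XT. The labels record RNA inputs of 1000 and 12 pg. The part of the input in the spread between libraries was not tested. The aligner STAR 2.5.3a and the counter HTSeq 0.6.1p1, after bcl2fastq 2.17.1.14 and cutadapt 1.10, are listed with mm10 per the submitters' processing notes. The sources used here give no annotation release and no strand setting. Of 32697 genes, 32684 had a symbol in GENCODE M21, which also gave coordinates, exon lengths and coding sequences.

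Groups were taken from the genotype labels. Tests used edgeR 4.0.16 in R 4.3.3: filterByExpr (minimum count 10, minimum total 15) kept 16040 genes, libraries were scaled by TMM, and all 16 entered 1 quasi-likelihood fit with 4 group means and 5 contrasts. Calls needed a Benjamini-Hochberg adjusted p under 0.05 over all genes tested. The fit was tested on simulated data with known changes. Every simulated gene had the same dispersion, so this does not show the power of the fit at the spread of these libraries. CPM and RPKM use the TMM-scaled totals, and log2 CPM a prior count of 2. Ratios are log2 of counts plus 1. Reads carried no molecular identifiers, so PCR copies were counted too. Replicates of a group differed by more than counting error (chi-square per gene of at least 44.9). Alternatives were other scalings and filters, DESeq2 1.42.0, limma 3.58.1 voom, marker sums as covariates, each set alone and each library left out.

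The receptor genes and the lists were chosen with earlier results of these data known. The lists held 180 entries, of which 178 were in the table, all but Il3 and Il5. Named are all receptor genes, both targeted genes, per contrast up to 4 called pathway genes or else the 2 with the smallest p, and per receptor the 3 genes most like it, leaving out predicted genes and pseudogenes. Of the marker lists the first 2 genes were to be named. Other markers named, and the statement on each library that stood apart, were chosen after their values were seen. The IRF and NF-kB motifs were widened after the longer forms had been searched, and both are reported.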

Additional observations from a re-analysis of the deposited data

Results flagged for a closer look

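Of 36 groups of 4 values checked, for the 7 receptor genes and the 2 ratios, 5 held a library far from the other 3 of its group. For independent values from a normal distribution, chance sets 1 apart in this way in about 1 in 20 groups. The receptor values were CPM without a log, and the groups share libraries. The count of 5 in 36 therefore cannot be read against that rate. Flt3 in Ikbkb control replicate 3 measured 430 CPM, while the next control measured 74.96 CPM. Csf2ra in the same library measured 102.6 CPM, while the next measured 26.2 CPM. Flt3 in Ikbkb-deleted replicate 1 measured 387.7 CPM, while the next of its group measured 105.6 CPM. Kit in that library measured 142.9 CPM, while the next measured 26.7 CPM. These libraries had the highest cDC1 marker sums of all, 9541 and 9831 CPM. The log2 ratio of Csf2rb2 to Csf2rb in Irf1 control replicate 3 was -0.86, while the next of its group was -1.79.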

How the results depend on the processing

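No receptor gene was called under any setting run, in any of the 5 contrasts. For the Irf1 controls against the Ikbkb controls edgeR called 2018 genes, and 1199 without a filter, 3171 with DESeq2 and 4130 with voom. DESeq2 called 38 genes for the Ikbkb deletion, 6 for the Irf1 deletion, 12 for their difference and 27 for their average, where edgeR called 0. Of the pathway genes, 2 were called between the controls, and 1 without a filter and 1 with the macrophage sum as a covariate, Csf1 being the call lost in both, 10 with voom, 4 with the cDC1 sum as a covariate, and 7 without both libraries rich in cDC1 markers, a setting added after seeing the data. The cause of these changes was not tested.

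Receptor log2 fold changes that turned sign were these. In the Ikbkb contrast Flt3 was -0.0258 with RLE scaling, -0.00316 without a filter, -0.0258 with DESeq2, -0.11 with the cDC1 covariate and -0.22 with the macrophage covariate, where Kit was -0.10. In the Irf1 contrast voom gave 0.29 for Csf1r, 0.094 for Csf2ra, 0.24 for Csf2rb and 0.48 for Csf3r, the cDC1 covariate -0.0923 for Flt3, and the macrophage covariate 0.000831 for Csf2rb and 0.23 for Csf3r. Between the controls voom gave 0.14 for Flt3, 0.71 for Kit, -0.83 for Csf1r and 0.0221 for Csf2ra. The cDC1 covariate gave 0.38 for Flt3, 0.62 for Kit, -0.0429 for Csf1r and 0.43 for Csf2ra, and the macrophage covariate 0.29 for Csf3r. Without both libraries rich in cDC1 markers the values were 0.60 for Flt3, 0.58 for Kit, -0.088 for Csf1r and 0.67 for Csf2ra, and Ccnd2 in the Ikbkb contrast was 0.0563. Scaled to total counts, Csf3r had an r of 0.0777 with the neutrophil sum, which was -0.0148 with TMM. Kit had an r of -0.359 with the mast cell sum over all libraries and 0.16 within the Irf1 set.

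With each library left out in turn, called genes ran from 782 to 2404 between the controls, from 0 to 1 for the Ikbkb deletion and from 0 to 1 for the difference, and called pathway genes between the controls from 0 to 6. In the Ikbkb contrast log2 fold changes ran from -1.07 to 1.44 for Flt3, -0.70 to 1.23 for Kit, -0.98 to 0.45 for Csf2ra, -0.19 to 0.91 for Csf2rb and -0.65 to 0.0104 for Ccnd2. In the Irf1 contrast they ran from -0.29 to 0.38 for Flt3, -0.83 to 0.0137 for Csf1r, -0.60 to 0.0252 for Csf2ra, -0.40 to 0.27 for Csf2rb and -0.79 to 0.41 for Csf3r. Between the controls they ran from -1.16 to 0.60 for Flt3, -0.48 to 0.58 for Kit, -0.49 to 0.36 for Csf1r, -0.57 to 0.67 for Csf2ra, -0.30 to 0.55 for Csf2rb and -0.62 to 0.23 for Csf3r. The Ikbkb difference in the log2 ratio ran from -0.12 to 0.37 for Csf2rb2 to Csf2rb and from -0.23 to 1.74 for Flt3 to Csf1r. No paired analysis was possible because the labels state no pairing of deleted and control libraries. Csf3r, with 36 to 392 counts a library, is the receptor gene that depth limits most.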
